A study of Mus musculus with 2 samples.

Results

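The microRNA genes described here belong to the Rtl1-antisense stretch of the imprinted Dlk1-Dio3 locus and the stretch just upstream of it, and were read in embryonic mouse liver. The 10 genes were chosen by name and position, with earlier results of these data known: Mir337, Mir540, Mir665, Mir3070a, Mir3070b, Mir431, Mir433, Mir127, Mir434 and Mir136. They lie on chromosome 12 of mm10, upstream of Mir379. Of the 10, 9 had a row among the 1973 microRNA genes counted, and Mir136 had none under its own identifier. Small RNA below 30 bases was sequenced from liver of B6NCrl embryos at day 13.5. The study has 2 libraries, biological replicates 1 and 2 by their labels, made from separate biosamples that each pooled male and female embryos. The embryos carried no named allele and received no named treatment. With 1 group there is no contrast between conditions, and the labels do not say how many embryos were pooled, so the spread given below is that between 2 pools, over which no exact two-sided test can give a p below 0.5.

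MicroRNAs are cut from hairpins as short RNAs that guide Argonaute proteins to messenger RNAs, mostly through the seed, the bases 2 to 8. In the Dlk1-Dio3 locus the non-coding RNAs, microRNAs included, are made from the maternal chromosome, while Dlk1, Rtl1 and Dio3 are made from the paternal one. Rtl1 encodes a protein derived from a retrotransposon that is needed for the fetal capillaries of the placenta. MicroRNAs made from the antisense transcript of Rtl1 match its messenger RNA perfectly and direct its cleavage. In fetal liver, the maternal RNAs of this locus are known for holding down mTOR signalling in blood stem cells.

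The sequences show how the members relate to Rtl1 and to each other. Mature and hairpin sequences came from RefSeq (GRCm38.p6), which held all 10 members with 2 arms each. The 10 hairpins lie on the plus strand within 9.6 kb, from chr12:109585789 to the end of Mir136 at 109595388. In GENCODE M21, Mir431, Mir433, Mir127, Mir434 and Mir136 fall inside the coding part of an Rtl1 exon (chr12:109590172-109595403), on the strand opposite to Rtl1. The other 5 lie upstream of that exon in the direction of their own transcription, where M21 annotates no other gene around them. The arms of the most abundant Rtl1-antisense members are shown with the seed in capitals, each above the stretch of Rtl1 messenger RNA that pairs with it, in which the capitals mark the bases that pair with the seed.
miR-127-3p: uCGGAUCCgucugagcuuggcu
Rtl1 opposite miR-127-3p: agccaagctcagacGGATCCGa
miR-127-5p: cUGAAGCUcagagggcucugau
Rtl1 opposite miR-127-5p: atcagagccctctgAGCTTCAg
miR-431-5p: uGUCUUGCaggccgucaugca
Rtl1 opposite miR-431-5p: tgcatgacggcctGCAAGACa
miR-431-3p: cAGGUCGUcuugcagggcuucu
Rtl1 opposite miR-431-3p: agaagccctgcaagACGACCTg

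All 10 mature sequences of the 5 Rtl1-antisense members had such a full-length complement in the Rtl1 messenger RNA, each within the coding part and in no other gene. The search covered 58797 protein-coding transcripts of M21. Over all 1738 mature entries of the RefSeq table, 3.62% had a full-length complement in a protein-coding transcript. The sites of miR-127-3p and miR-431-5p cover coding bases 2495 to 2516 and 4925 to 4945, counted from the start codon of a coding part of 5232 bases. These matches follow from the position of the genes, and Rtl1 itself was not measured in these libraries. The 10 mature sequences of the members outside Rtl1 had no full-length complement in any transcript searched.

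The members do not form a seed family. Their 20 mature entries carried 18 distinct seeds, and the repeats came from Mir3070a and Mir3070b, which share both. Outside the members, only the seed of miR-540-3p recurred in the table, in miR-6915-5p, whose gene was not matched to a counted row. Of all mature entries listed, 32.0% share a seed with any other gene. By that measure the entries of Mir3070a and Mir3070b count as shared too, beside miR-540-3p. The 32.0% is therefore no background for sharing outside the members alone. The other members with counts are shown by the arms of Mir337, Mir434 and Mir433, whose seeds all differ.
miR-337-5p: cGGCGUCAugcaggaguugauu
miR-337-3p: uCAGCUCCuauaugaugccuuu
miR-434-5p: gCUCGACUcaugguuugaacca
miR-434-3p: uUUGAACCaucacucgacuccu
miR-433-5p: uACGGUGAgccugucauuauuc
miR-433-3p: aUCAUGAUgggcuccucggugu

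Mir127 and Mir431 carried most of the counts of this stretch. Levels are given as CPM, reads sharing the gene's strand per 1000000 such reads in the library, so a level is a share and not an amount per cell. In whole tissue, fewer cells of a type and less RNA per cell cannot be told apart. A row holds all reads of a hairpin, so the arms cannot be told apart, and a read covers a whole mature microRNA, so CPM was not divided by length. Together the 9 counted members made up 5.14% ± 0.131 of counts (SD, n = 2), with a sum of 52371 CPM in the first library and 50525 CPM in the second. Mir127 and Mir431 held 66.4% ± 0.288 of that sum. The 4 counted Rtl1-antisense members held 81.2% ± 0.0624 of it.

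Mir127 (ENSMUSG00000070076.1, chr12:109592846-109592915), whose 3p arm is known to target Bcl6 besides Rtl1, had 47701 counts in replicate 1 and 76054 in replicate 2. These are levels of 18294 and 17742 CPM, which placed it 19th of 1973 genes at 18018 ± 391 CPM. Mir431 (ENSMUSG00000070080.1, chr12:109590447-109590537), known in muscle stem cells as a regulator of Pax7, had 42661 and 68151 counts, or 16361 and 15898 CPM. Both genes were slightly lower in replicate 2, each by 0.04 in log2 with the totals as counted, and Mir127 stood above Mir431 in each library. The ratio of their counts was 1.118 in replicate 1 and 1.116 in replicate 2. Mir433 (ENSMUSG00000070072.1, chr12:109591715-109591838), studied as a regulator of FGF20, lies between them on the chromosome and stood at 2887 and 2776 CPM on 7527 and 11901 counts. Mir127 thus exceeded Mir433 by 6.34-fold and 6.39-fold in counts. Mir434 (ENSMUSG00000070133.1, chr12:109594506-109594599) stood at 4939 and 4613 CPM on 12878 and 19773 counts.

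**Figure D1:**
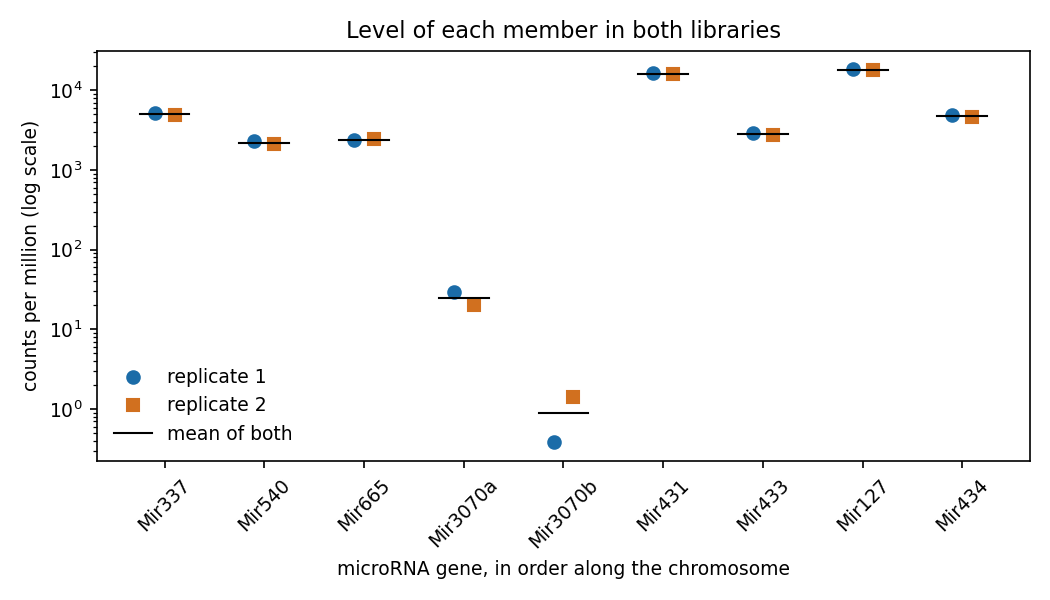
Level of each counted member in replicate 1 (circles) and replicate 2 (squares), in CPM on a log axis, with members in order along the chromosome and a line at the mean of both. Mir127 and Mir431 lie highest in both libraries, and Mir3070a and Mir3070b lie lowest.

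Upstream of Rtl1, Mir337, Mir665 and Mir540 stood high and Mir3070a and Mir3070b far below. Mir337 (ENSMUSG00000065526.3, chr12:109585789-109585885) had 13565 and 21063 counts, or 5202 and 4914 CPM, the highest of this stretch. Mir665 (ENSMUSG00000076313.1, chr12:109586314-109586407) stood at 2362 and 2446 CPM, and Mir540 (ENSMUSG00000072900.1, chr12:109586080-109586146) at 2295 and 2115 CPM. The order of the members by mean was Mir127, Mir431, Mir337, Mir434, Mir433, Mir665, Mir540, Mir3070a and Mir3070b. Mir337 and Mir434 were neighbours in that order whose ranges over the libraries overlapped, although Mir337 was the higher in each library. All other neighbours had ranges that did not overlap. Divided by hairpin length, Mir433, the longest hairpin at 124 bases, moved from place 5 to 7 and Mir540 from place 7 to 5, and the other 7 kept their places.

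Mir3070a and Mir3070b stood apart from the other members by their sequence and their counts. Their hairpins of 89 bases differ at 5 positions, their 5p arms are identical, and their 3p arms differ by C9U and C10G, with the base of Mir3070a first and positions counted from the 5′ end. The shared 5p arm and both 3p arms are shown with the seed in capitals.
miR-3070-5p: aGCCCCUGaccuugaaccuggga
miR-3070-3p: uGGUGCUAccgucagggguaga
miR-3070-2-3p: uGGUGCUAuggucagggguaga

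Mir3070a (ENSMUSG00000095147.1, chr12:109587943-109588031) had 76 counts in replicate 1 and 87 in replicate 2, or 29.1 and 20.3 CPM. Mir3070b (ENSMUSG00000094952.1, chr12:109588592-109588680) had 1 and 6 counts, or 0.384 and 1.40 CPM, and was the only counted member below 10 counts in each library, the limit of detection used here. Both libraries had Mir3070a above Mir3070b. Reads that mapped to several places, 36.7% of reads in replicate 1 and 32.0% in replicate 2, were not assigned to genes. A read of the 5p arm matches both genes, so these counts set no upper limit on miR-3070-5p, and the levels of the pair are uncertain. None of the other 7 counted members shared a word of 20 bases with a hairpin elsewhere in the table.

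Of the 9 counted members 8 were detected, against 18.6% of all 1973 genes. In the same locus, 28 of 31 counted genes from Mir379 to Mir410 and 6 of 7 other genes before Mir379 were detected. The median counted member stood at 2832 CPM, beside 150.03 CPM over the 367 detected genes. Because the members were chosen with earlier results of these data known, these comparisons are descriptive. In the order of all genes by mean level, the gene directly above Mir127 was Mir143, a microRNA of smooth muscle and mesenchyme at 18031 ± 716 CPM, and the gene directly below was Mir431. The range of Mir143 overlapped that of Mir127. Directly below Mir431 came Mir369, from the downstream part of the same locus, at 14556 ± 904 CPM, and its range did not overlap. Mir337, at place 48, lay between Mir101b at 5294 ± 186 CPM and Mir434.

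The other microRNA genes of the locus before Mir379 were lower than the 7 most abundant members, with 1 exception. Toward Meg3, the long non-coding RNA at the maternal start of the locus, Mir493 stood at 241 ± 42.2 CPM, Mir673 at 310.2 ± 5.52 CPM and Mir770, within Meg3, at 200.4 ± 22.03 CPM. Beyond Rtl1, within the non-coding gene Rian, Mir341 stood at 2995 ± 16.3 CPM, which was above Mir433, Mir665 and Mir540 in both libraries. Mir370 stood at 1233 ± 6.66 CPM and Mir1188 at 21.1 ± 3.21 CPM. Mir432 lies inside the coding part of Rtl1 between Mir434 and Mir136, and its listed mature sequence also has a full-length complement in Rtl1. It had 0 counts in both libraries, which allows up to 3 counts, or 1.15 CPM in the first library and 0.700 CPM in the second, for counting error only. Its sequence is shown with the seed in capitals.
miR-432: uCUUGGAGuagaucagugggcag

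**Figure D2:**
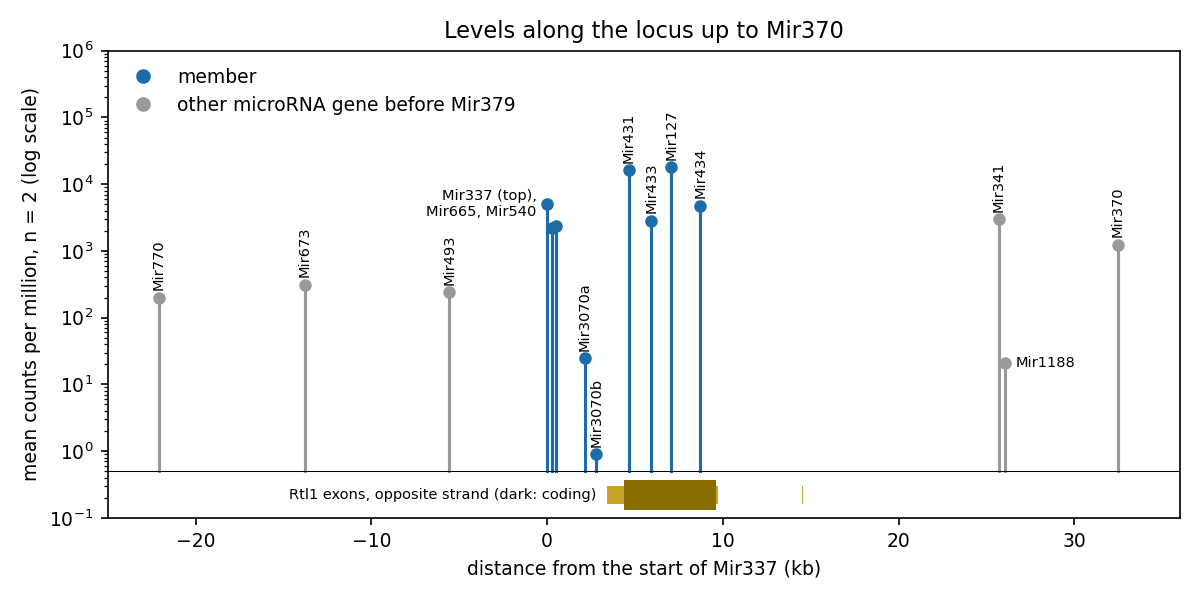
Mean level of the members (blue) and of other microRNA genes before Mir379 (grey), in CPM on a log axis, against distance from the start of Mir337 in kb, with the Rtl1 exons drawn below and their coding part dark. Mir431, Mir433, Mir127 and Mir434 stand over the coding part of Rtl1. Mir432, at 0 counts, and Mir136 are not drawn.

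The downstream part of the locus, from Mir379 to Mir410, begins 113.7 kb after Mir136 and held more counts in total. Of its 36 listed genes 31 had a row, and these summed to 121259 ± 961 CPM. That was 2.36-fold ± 0.0411 above the sum of the 9 members, a log2 ratio of members to downstream genes of -1.24 ± 0.03. Without genes that share a word with another hairpin, the distance was 1.48-fold ± 0.0404, over 27 downstream genes and 7 members. That setting leaves out the most abundant downstream genes, Mir411 at 21670 CPM and Mir487b at 20864 CPM. Their counts hold only uniquely placed reads, so the smaller distance does not show that shared words had raised the larger one. Listed downstream genes without a row are in neither distance. With the reads opposite 4 rows at downstream places added, the distance was 3.32-fold ± 0.128, over 35 downstream genes and 9 members. That setting was chosen after seeing the data. The median downstream gene stood at 780 CPM, beside 2832 CPM for the members. Among the 47 counted genes of the 3 lists, Mir127 and Mir431 took places 3 and 4 behind Mir411 and Mir487b, both of which share a word with another hairpin. Listed genes without a row have no place in that order. Mir487b is named because of its place, after its values were seen. The lowest downstream genes were Mir654 and Mir453 at 0 counts.

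**Figure D3:**
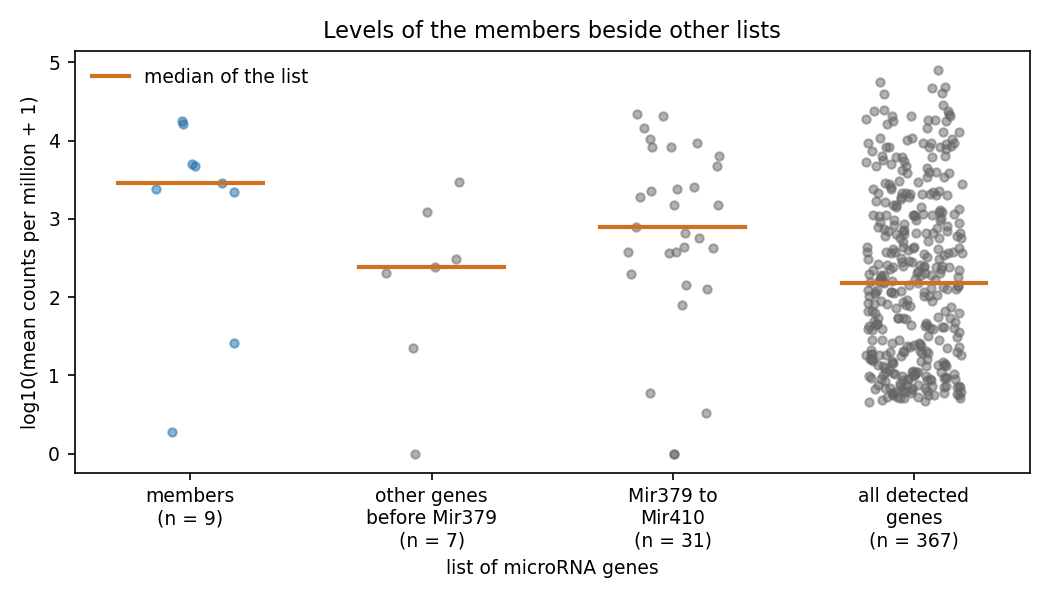
Level of each gene as log10(mean CPM + 1) for the 9 counted members, 7 other genes before Mir379, 31 genes from Mir379 to Mir410 and all 367 detected genes, with a line at each median. The median member stands above the other 3 medians, and Mir3070a and Mir3070b lie far below the rest of the members.

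The tissue label was set beside lists of marker microRNAs. Mir122, the hallmark of hepatocytes, stood at 79994 ± 213 CPM, and the hepatocyte list held 8.50% ± 0.0574 of counts with 5 of 5 genes detected. Other cell types were present as well. The endothelial list held 5.67% ± 0.210, with Mir126a at 56024 CPM. The mesenchymal list held 2.04% ± 0.0573 and the leukocyte list 1.03% ± 0.0133. The neural list held 0.0235% ± 0.00178, with 4 of 10 counted genes detected and Mir128-1 highest at 396 and 495 counts. In that list, Mir9-2 and the 3 Mir124a genes stood at 0 counts. The striated muscle list held 0.0966% ± 0.0271, with 3 of 6 counted genes detected and Mir133a-1 and Mir133a-2 at 0. The striated muscle list summed to 1158 CPM in the first library and 774.7 CPM in the second, and Mir206, its most abundant gene, had 2272 and 2239 counts. The genes of the neural and striated muscle lists named at 0 have copies elsewhere, so the 0 sets no limit. Reads that fit several copies were not assigned to genes, so the low shares of these lists do not by themselves check the label. The erythroid list, with 3 of 3 genes detected and none at 0, summed to 17989 CPM in the first library and 33035 CPM in the second. That difference was Mir451a, with 28029 and 112923 counts, while Mir144 of the same list was called lower by the test described next (log2 difference -0.13) and Mir486 was not called (-0.02). Totals were 2607403 counts in replicate 1 and 4286742 in replicate 2.

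The members differed little between the libraries, and some of the small differences that passed a test depended on the scaling. A two-sided exact binomial test compared each gene's split of counts with the split of the totals. It covers counting error only and compares 2 libraries, not conditions. The spread beyond counting error, from the edgeR common dispersion over all genes, was 13.6% as a coefficient of variation. At an adjusted p under 0.05, 6 of the 9 members were called, all lower in replicate 2, where 20.1% of all 711 genes with a count were called in either direction, 8.58% as higher and 11.5% as lower. Deep counts make small differences callable: among the 83 genes with at least 10000 counts in total, 79.5% were called, and among the 7 members of that depth 6 were. The median member differed 1.06-fold, beside 1.22-fold over all genes with a count in both libraries and 1.07-fold over genes of that depth. With direction kept, the median log2 difference was -0.055 over the 83 genes of that depth and -0.056 over the 7 members among them.

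Mir540 fell by 0.12 in log2 in replicate 2 (95% counting interval -0.17 to -0.07, exact test, Benjamini-Hochberg adjusted over all genes tested, p = 9.23e-06). Mir434 fell by 0.10 (adjusted p = 2.03e-08, exact test) and Mir337 fell by 0.08 (adjusted p = 2.18e-06, exact test). The called differences of Mir433, Mir127 and Mir431 were -0.06, -0.04 and -0.04. With TMM library sizes, which discount genes that shift far between libraries, these 3 lost their call (adjusted p from 0.312 to 0.476, exact test). Mir540, Mir434 and Mir337 stayed called as lower (adjusted p = 0.00224, 0.000289 and 0.00767, exact test). Mir665 was called higher at 0.08 in place of 0.05. The split of called members was then 1 higher and 3 lower, and that of all genes 72 higher and 63 lower in place of 61 and 82. With totals that leave out Mir451a, which was tried once the values were known, the members split 1 higher and 3 lower as well. The part of Mir451a in the differences of single members was not tested beyond this change of totals.

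**Figure D4:**
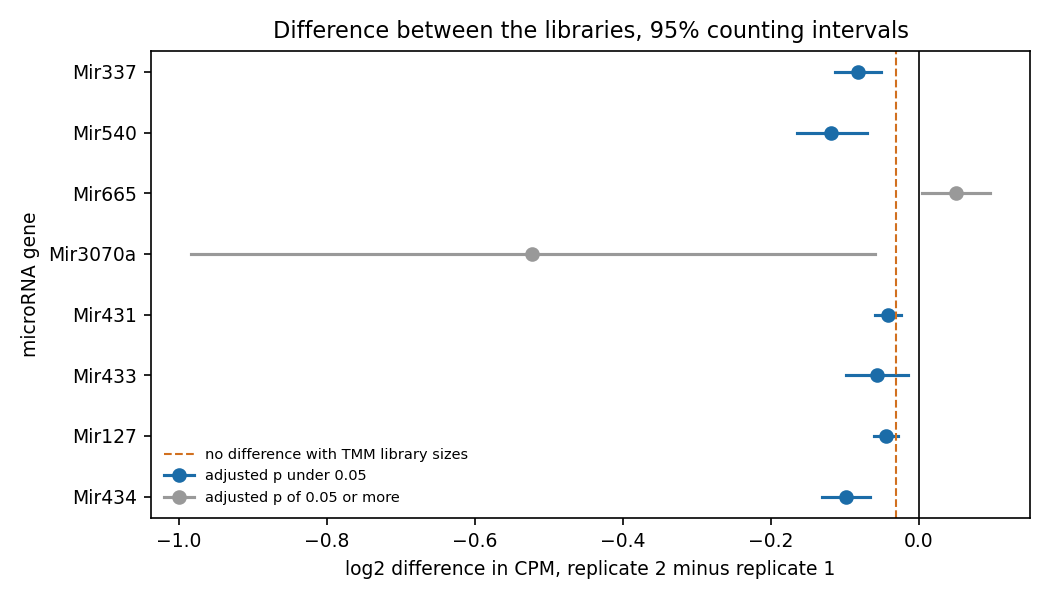
Log2 difference in CPM between the libraries, replicate 2 minus replicate 1, for the 8 detected members, with 95% counting intervals. Blue members have an adjusted p under 0.05, and the dashed line marks no difference under TMM library sizes. Mir127, Mir431 and Mir433 lie near the dashed line, Mir337, Mir434 and Mir540 lie to its left and Mir665 lies to its right.

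Mir3070a differed by -0.52 in log2 on 76 and 87 counts, with an interval from -0.98 to -0.06, and was not called (adjusted p = 0.101, exact test). Mir3070b, on 1 and 6 counts, had an interval from -1.18 to 7.39, so its difference was not measurable at this depth. Mir665 was not called with the totals as counted (adjusted p = 0.125, exact test). Counts on the opposite strand were 0 for 7 of the 9 members, 1 for Mir433 in replicate 1, and 76 and 159 for Mir337.

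Mir136 could not be given a level. Its M21 identifier is in neither table, and the row at its position (ENSMUSG00000070129) carries the identifier that M21 gives to Mir3071, on the minus strand at chr12:109595318-109595397. That row had 2914 counts in replicate 1 and 4730 in replicate 2 on the strand of the counted gene, 1110 ± 10.03 CPM, and 5 and 7 on the other strand. The strand this row had in the annotation used for counting, GENCODE M4, was not settled here, so these reads cannot be assigned to Mir136 or to Mir3071. The arms of Mir136 are shown because each has its complement near the start of the Rtl1 coding part, at coding bases 52 to 73 for miR-136-5p and 17 to 38 for miR-136-3p.
miR-136-5p: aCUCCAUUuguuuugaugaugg
miR-136-3p: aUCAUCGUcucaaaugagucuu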

How the data were processed

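The authors deposited 1 table of raw read counts per gene and library, on mm10 with GENCODE M4 per the deposited lists of files, with columns for both strands, the gene's strand and the opposite strand. Which aligner and counter were run is not given in the sources used here. Counts on the gene's strand were used, scaled to CPM by their total. Reads in no gene stayed out of totals. Identifiers were matched to GENCODE M21 (1894 of 1973). Genes were tested over all 711 with a count by the exact binomial test with Benjamini-Hochberg adjustment, in Python 3.11.15 with scipy 1.17.1. The test was tried on simulated counts that held counting error only, so that trial does not cover the spread between pools. edgeR 4.0.16 gave TMM library sizes and the common dispersion, and DESeq2 1.42.0 gave size factors. No molecular identifiers enter, so intervals cover counting error only. The members and lists were chosen with earlier results of these data known. Named were the 10 members, the other genes before Mir379, the highest and lowest genes of Mir379 to Mir410, the genes directly above and below the first 3 members in level, and marker genes. Alternatives were other strands, scalings, limits and lists. Mir136 was not analysed as a row.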

Additional observations from a re-analysis of the deposited data

Results flagged for a closer look

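Reads outside the counts used above appeared at 2 members, and the study has no control samples, so they were set against the limit of 3 counts. Opposite Mir337, 76 counts were found in replicate 1 and 159 in replicate 2. RefSeq places Mir3544 there on the minus strand. At the position of Mir136, the row that M21 names Mir3071 had 2914 counts in replicate 1 and 4730 in replicate 2 on the strand of the counted gene.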

How the results depend on the processing

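TMM and DESeq2 scaling moved no level of the 9 members by more than the spread between libraries. With counts from both strands, whose total is larger, the sum of the members was 46106 CPM in place of 51448 and the median 2536 CPM in place of 2832. Scaled to all reads, they were 17526 and 965 CPM. With the row at the position of Mir136, the sum was 52559 CPM. Leaving out each library in turn, the sum ran from 50525 to 52371 CPM. The log2 ratio of members to downstream genes, -1.24, became -1.58 without the most abundant gene of each list, -0.57 without genes that share a word, and -1.73 with the reads opposite 4 rows at places of the downstream list, the last chosen after seeing the data. Between 7 and 9 members were detected under limits of 1 to 100 counts. Members called between the libraries numbered 4 to 6, and all genes called 135 to 153. No paired analysis was possible because only 1 group exists. Depth limits Mir3070a and Mir3070b, and with at least 10 counts in total Mir3070b gave no value.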

Other observations

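Both arms of Mir431 hold the run gucuugcagg of 10 bases, and those of Mir434 hold uuugaacca of 9 bases. Of 677 hairpins with 2 listed arms, 4 had arms that share a run of 10 or more. These runs were looked for after the sequences had been seen.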
